A study of Mus musculus with 90 samples.

Results

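Growth hormone binds its receptor on liver cells and induces them to make and secrete IGF1, and 10 genes of this axis were followed here among the 27654 genes of the deposited tables. They were chosen by name for their roles, and not blind to these data: the growth hormone receptor *Ghr*, the hormone *Igf1*, its carriers *Igfals*, *Igfbp1* and *Igfbp2*, the feedback inhibitors *Socs2* and *Cish*, and the transcription factors *Stat5b*, *Bcl6* and *Cux2*. All 10 were found in the tables, each as 1 gene.

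Bulk RNA-seq of polyA RNA was measured in 90 livers of single male C57BL/6J mice, from a time series, a diet comparison and a corticosterone experiment. The time series held WT mice, which carry a floxed GR gene (GRfl/fl) without Cre, and GR LKO mice, in which Alb-Cre deletes that gene in hepatocytes, so that other liver cells keep GR. Livers were taken at ZT0, ZT4, ZT8, ZT12, ZT16 and ZT20, where ZT12 is lights off and the time at which food was given. On caloric restriction each genotype had 3 mice per time point, and on control diet 3, or 4 at ZT8 and ZT12 in both genotypes and at ZT16 and ZT20 in WT. The diet protocol began at 12 weeks of age and the mice were used at 20-21 weeks. Intake was lowered stepwise over 4 weeks to 40% fewer calories and kept there for 3 weeks by the methods (4 in another section of the paper), while control mice were fed freely and then only at night for the last 1 week. The diet comparison held 3 WT mice on caloric restriction and 3 on control diet at ZT12. Its control titles carry the letters AL while the treatment label gives night-restricted feeding, so that their last week of feeding is uncertain. The corticosterone experiment held 3 WT mice injected with CORT at 5 mg per kg for 7 days, at ZT11 by the methods (ZT12 elsewhere in the paper), and 3 control mice injected with vehicle, all under night-restricted feeding and taken at ZT12. Those mice were 12 weeks old when 2 weeks of handling began.

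Counts per library ran from 14235473 to 20788575 in the series on caloric restriction and from 10057544 to 17089004 in the series on control diet. They ran from 36442195 to 39492146 in the diet comparison and from 13739631 to 16077943 in the corticosterone experiment. Levels are given as CPM, counts of a gene scaled to the size of its library with TMM factors within 1 table, and counting error and spread between mice both enter them. Differences are log2 changes with their standard error (SE) by quasi-likelihood F tests of edgeR. The p were adjusted over all genes tested after Benjamini and Hochberg, and a gene was called at an adjusted p under 0.05.

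Growth hormone is released from the pituitary in pulses, and in the liver its receptor works through the kinase JAK2 and the transcription factors STAT5A and STAT5B. STAT5B is known to drive *Igf1*, *Igfals* and the feedback inhibitors *Socs2* and *Cish*, and to set liver genes that differ between males and females together with the repressors BCL6 and CUX2. IGF1 circulates bound to carriers: IGFALS holds the long-lived complex together, while IGFBP1, which insulin is known to repress, and IGFBP2 bind smaller amounts.

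The labels were checked against *Nr3c1*, the gene that encodes GR. Its level ran from 70.5 to 117 CPM in the WT mice of the series and from 16.2 to 32.2 CPM in the GR LKO mice, with no overlap. The 6 hepatocyte markers, led by *Alb*, summed to between 65807 and 171968 CPM in the 90 libraries. Exocrine pancreas markers had a median of 0 CPM but reached 432 CPM in replicate 3 of WT on caloric restriction at ZT12, with *Ctrb1* the most abundant. In bulk samples, fewer cells of a type and less RNA per cell cannot be told apart.

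The first question was what caloric restriction does to the axis in WT liver at ZT12. The receptor and the complex-forming carrier were lower, *Igfbp1* and *Cux2* were many times higher, and *Igf1* itself did not pass the test. Of the 10 members 7 were called, 3 higher and 4 lower, where 47.1% of all 13062 genes tested were called, 23.5% higher and 23.6% lower. The member share is to be read against that broad background. DESeq2 called 7 members too.

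*Ghr*, the receptor that binds growth hormone at the hepatocyte surface, measured 605, 624 and 691 CPM in the control mice and 416, 327 and 306 CPM in the restricted mice. All 3 restricted mice lay below all control mice. The log2 change was -0.88 (SE 0.13, n = 3 per group, edgeR adjusted p = 0.00168, lower in 3 of 3 restricted mice). *Igf1*, the hormone that the liver secretes, measured 641, 616 and 822 CPM in the control mice and 584, 578 and 584 CPM in the restricted mice. The restricted mice lay close together under the control mice, and the log2 change of -0.25 (SE 0.12) did not pass the test (edgeR adjusted p = 0.107, lower in 3 of 3). In the WT mice of the time series at ZT12 *Igf1* lay the other way, at 707, 918 and 836 CPM on caloric restriction and 566, 604, 548 and 750 CPM on control diet, in tables normalized separately and with diet and library series that cannot be told apart.

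Among the carriers, *Igfals*, the acid-labile subunit, measured 41.7, 41.7 and 54.3 CPM in the control mice and 17.4, 24.1 and 18.8 CPM in the restricted mice. The groups did not overlap, and *Igfals* fell by 1.19 on the log2 scale (SE 0.15, edgeR adjusted p = 0.00115, lower in 3 of 3). *Igfbp1* measured 32.7, 39.7 and 13.1 CPM in the control mice and 750, 769 and 1434 CPM in the restricted mice. Every restricted mouse was far above every control mouse, by a log2 change of 5.11 (SE 0.49, edgeR adjusted p = 0.000425, higher in 3 of 3). *Igfbp2* measured 469, 306 and 253 CPM in the control mice and 463, 416 and 388 CPM in the restricted mice. Those ranges overlapped, with a log2 change of 0.30 (SE 0.22, edgeR adjusted p = 0.295).

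The feedback inhibitors act to switch off signaling from the receptor. *Cish* measured 80.2, 73.3 and 35.7 CPM in the control mice and 19.6, 37.6 and 24.2 CPM in the restricted mice. Control replicate 3 lay below the highest restricted mouse, so that the groups overlapped. The log2 change of *Cish* was -1.22 (SE 0.34, edgeR adjusted p = 0.0235), with 2 of 3 restricted mice below all control mice. *Socs2* measured 45.6, 46.6 and 40.0 CPM in the control mice and 14.5, 52.9 and 47.2 CPM in the restricted mice. Restricted replicate 1 was low and the other 2 restricted mice were above all control mice, and *Socs2* did not pass the test (log2 change -0.21, SE 0.41, edgeR adjusted p = 0.702).

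Of the transcription factors, *Stat5b*, which carries the signal of the receptor to the nucleus, measured 47.5, 45.4 and 43.8 CPM in the control mice and 70.7, 51.3 and 69.5 CPM in the restricted mice. All 3 restricted mice were higher, by a log2 change of 0.48 (SE 0.13, edgeR adjusted p = 0.0175). The repressor *Bcl6*, which is known to be high in male liver, measured 21.8, 26.6 and 15.7 CPM in the control mice and 14.4, 5.2 and 7.34 CPM in the restricted mice. The groups did not overlap, although restricted replicate 1 came close to the lowest control mouse, and the log2 change was -1.26 (SE 0.37, edgeR adjusted p = 0.0261, lower in 3 of 3). *Cux2*, a homeobox factor known to be higher in female than in male liver, measured 0.524, 0.496 and 0.660 CPM in the control mice and 14.7, 23.9 and 26.0 CPM in the restricted mice. The lowest restricted mouse was far above the highest control mouse, and *Cux2* rose by 5.26 on the log2 scale (SE 0.28, edgeR adjusted p = 7.66e-05, higher in 3 of 3).

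**Figure D1:**
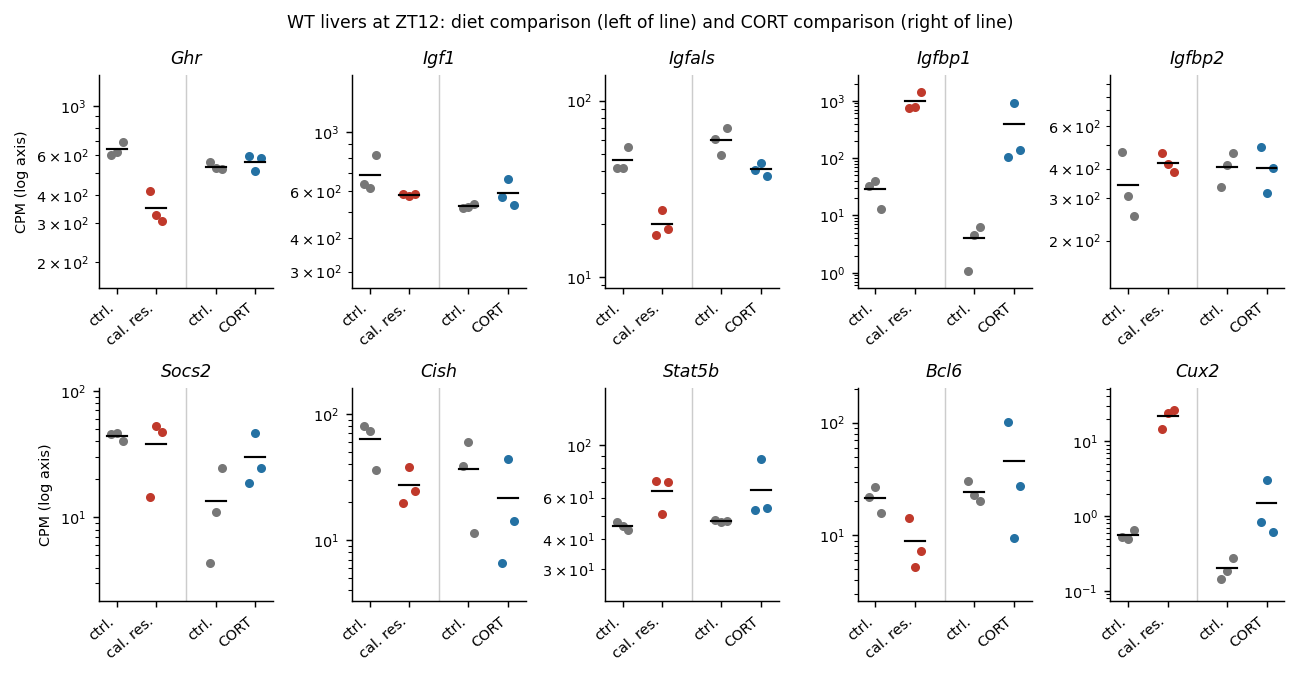
Level of each of the 10 genes in CPM (log axis) in every WT liver of the diet comparison, left of the line, and of the corticosterone experiment, right of the line, at ZT12, with a bar at each group mean. *Igfbp1* runs from 750 to 1434 CPM on caloric restriction and from 13.1 to 39.7 CPM on control diet, and *Ghr* is lower in all 3 restricted mice. The 2 experiments were normalized separately.

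*Ghr*, *Igfals*, *Igfbp1* and *Cux2* kept their calls in all 11 alternatives to this fit. The calls of *Bcl6* and *Cish* were each lost in 5 of 11 and that of *Stat5b* in 3 of 11, all with the direction kept. Without control replicate 2, 4 members were called, and *Bcl6* (log2 change -1.07), *Cish* (-1.10) and *Stat5b* (0.48) were not. *Stat5b* also missed without control replicate 3 (0.45). *Bcl6* missed without control replicate 1 (-1.25) or restricted replicate 2 (-0.98) or 3 (-1.13). Its change was -1.77, and still called, without restricted replicate 1. *Cish* missed without control replicate 1 (-1.01) or restricted replicate 1 (-1.02) or 3 (-1.14). Over the alternatives the edgeR or DESeq2 adjusted p of *Cish*, lower in 2 of 3 restricted mice, reached 0.127, that of *Bcl6* 0.0865 and that of *Stat5b* 0.0630. With the WT mice of the series taken at ZT12 in place of these mice, *Ghr*, *Igfals*, *Igfbp1* and *Cux2* were the 4 members called. In that alternative diet and library series cannot be told apart.

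Around the members, the other genes of growth hormone receptor signaling moved both ways. Of 15 tested, 3 rose and 6 fell with caloric restriction, where 23.5% of all genes rose and 23.6% fell, with a median log2 change of 0.12 beside -1.8e-06 over all genes tested. *Prlr*, the related prolactin receptor, went from 44.7 ± 11 CPM (SD, n = 3) on control diet to 158 ± 24.4 CPM (SD, n = 3). *Onecut1*, a liver factor known to respond to growth hormone, went from 157 ± 5.05 to 24.2 ± 10.5 CPM (SD, n = 3 each), and *Stat5a* from 10.8 ± 0.531 to 7 ± 1.04 CPM. Of the other IGF ligands, receptors and carriers, 13 were tested, 4 rose and 1 fell, with a median log2 change of 0.11. The adaptor *Grb10*, which binds the insulin and IGF1 receptors, fell by 0.82 (SE 0.13, edgeR adjusted p = 0.00209, lower in 3 of 3 restricted mice).

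Liver genes known to differ between the sexes were read beside *Stat5b*, *Bcl6* and *Cux2*. Both lists were chosen with earlier results of these data known, so that their shares are a description and not independent evidence. All 20 of the 20 male-biased genes tested fell, beside 23.6% of all genes, with a median log2 change of -4.12. *Hsd3b5* went from 233 ± 51.1 to 1.57 ± 1.89 CPM (SD, n = 3 each). Of 15 female-biased genes tested, 13 rose and 1 fell, beside 23.5% and 23.6% of all genes, with a median of 3.84. *Ntrk2* was the gene that fell (log2 change -1.82, SE 0.34, edgeR adjusted p = 0.00470, lower in 3 of 3). The female-biased list held 20 genes. A gene low on control diet could pass edgeR's count filter only through restricted mice in which it was high. For such genes a rise was largely fixed by the filter, so that the share that rose cannot be set against that of all genes. Many of the male-biased and female-biased genes have near-identical copies, so that the level of each copy is uncertain. In the same mice the hepatocyte markers summed to 83703 to 89845 CPM on control diet and 158207 to 164803 CPM on caloric restriction, led by *Alb*, with 3 of 6 called higher beside 23.5% of all genes. Of the endothelial markers 4 of 5 were higher, of the cholangiocyte markers 2 of 3 tested and of the stellate markers 1 of 4. Of the Kupffer and myeloid markers 1 of 5 was lower, and of the lymphocyte markers 1 of 2 tested (median log2 change -2.29). Of the 3 erythrocyte markers 1 was called, *Alas2*, which was lower (log2 change -2.89, SE 0.18, edgeR adjusted p = 0.000129, lower in 3 of 3). The part of these markers in the member results was not tested.

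The genotype comparison on caloric restriction asked what the axis does without hepatocyte GR. *Ghr* was higher and *Igfbp1* was lower in GR LKO mice over the day as a whole, and *Igfbp1* crossed over at ZT20. With the time point as a factor, 2 of 10 members were called, where 30.6% of all genes tested were called. *Ghr* had a log2 difference of 0.40 (GR LKO minus WT, SE 0.05, n = 18 per genotype, edgeR adjusted p = 8.78e-07), higher on average at 6 of 6 time points. *Igfbp1* had a log2 difference of -1.31 (SE 0.34, edgeR adjusted p = 0.00357), and its mean was higher in GR LKO at 1 of 6 time points. Without ZT12 the difference of *Igfbp1* was -0.80 and without ZT20 it was -1.83, both called. *Igf1* was called as a 3rd member without ZT12. Without the library that held the pancreas markers, a setting chosen after the data were seen, *Ghr* (0.39) and *Igfbp1* (-1.30) were still the 2 members called.

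At ZT0 and ZT4 no member passed. At ZT0, edgeR's quasi-likelihood test called 0 of 10 members beside 0.502% of all genes, with 1 member at an unadjusted p under 0.05 and 0 by DESeq2. At ZT4 it called 0 of 10 beside 0.69%, with 4 members at an unadjusted p under 0.05 and 2 by DESeq2, *Igfbp1* and *Igfbp2*. The ZT4 levels of *Igfbp1* were 31.3, 36.1 and 36.1 CPM in WT against 18.5, 12.0 and 5.98 CPM in GR LKO, and the groups did not overlap. *Igfbp2* measured 577, 610 and 661 CPM in WT against 467, 401 and 252 CPM in GR LKO at that time, also without overlap. Without WT replicate 3 at ZT4, *Cux2* was called as the 1 member.

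At ZT8, 1 of 10 members was called beside 2.55% of all genes. *Igfbp1* measured 20.8, 42.3 and 23.7 CPM in WT against 8.33, 4.73 and 7.65 CPM in GR LKO. All 3 GR LKO mice were below all WT mice (log2 difference -2.06, SE 0.32, edgeR adjusted p = 0.0229, lower in 3 of 3). The call was lost without WT replicate 3 (-2.19), without GR LKO replicate 1 (-2.23), 2 (-1.85) or 3 (-2.14), and with a replicate block (-2.01), with adjusted p up to 0.0972 over the alternatives of that edgeR fit.

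At ZT12, 2 of 10 members were called beside 15.3% of all genes. *Ghr* measured 349, 445 and 404 CPM in WT against 570, 580 and 515 CPM in GR LKO, without overlap (log2 difference 0.47, SE 0.11, edgeR adjusted p = 0.0286, higher in 3 of 3). Its call was lost without WT replicate 1 (0.38) or 3 (0.47), without GR LKO replicate 1 (0.44), 2 (0.44) or 3 (0.51), or with a replicate block (0.47). *Igfbp1* measured 169, 624 and 266 CPM in WT against 39.8, 21.0 and 24.8 CPM in GR LKO. WT replicate 2 was the highest, yet the other 2 WT mice were also far above all GR LKO mice (log2 difference -3.64, SE 0.52, edgeR adjusted p = 0.00508, lower in 3 of 3). Without WT replicate 2 the difference was -2.94 and still called. *Igf1* measured 707, 918 and 836 CPM in WT against 679, 671 and 553 CPM in GR LKO, and *Igfals* 14.7, 20.4 and 20.7 CPM against 22.6, 31.8 and 27.8 CPM. Neither of these genes overlapped between genotypes, but edgeR did not call them (log2 difference -0.38 with adjusted p = 0.0860, and 0.55 with adjusted p = 0.0679), whereas DESeq2 called both.

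At ZT16, 1 of 10 members was called beside 4.54% of all genes. *Ghr* measured 311, 344 and 362 CPM in WT against 496, 506 and 516 CPM in GR LKO, the widest gap between the genotypes for this gene on this diet. The log2 difference was 0.58 (SE 0.09, edgeR adjusted p = 0.0119, higher in 3 of 3), and the call was lost without WT replicate 1 (0.52). Without WT replicate 3, *Cux2* was called beside *Ghr*, which made 2 members.

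At ZT20, 1 of 10 members was called beside 1.47% of all genes. *Igfbp1* measured 32.4, 27.6 and 26.8 CPM in WT against 62.7, 50.6 and 63.6 CPM in GR LKO, so that all 3 GR LKO mice were above all WT mice. The log2 difference was 1.06 (SE 0.13, edgeR adjusted p = 0.0170, higher in 3 of 3), and the call was lost without WT replicate 1 (1.14), 2 (1.02) or 3 (1.01), and in 1 fit of all libraries of the diet (1.05). At ZT8 and ZT12 the gene was lower in GR LKO, and whether the genotype effect on *Igfbp1* changed with time was tested with the rhythms.

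The same genotype comparison was made on control diet. *Ghr* was higher in GR LKO mice by a small amount over the day, and *Cish* stood far higher in GR LKO mice at ZT20. Over the day 1 of 9 members tested was called, where 18.2% of all genes were called, and *Cux2* was too low to be tested. *Ghr* had a log2 difference of 0.13 (SE 0.04, n = 22 WT and 20 GR LKO, edgeR adjusted p = 0.0116), higher on average at 6 of 6 time points. The call was lost without replicate number 2 (0.14) or 3 (0.11) and without ZT16 (0.10). Without ZT0 or ZT4, *Bcl6* was called as well, which made 2 members.

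At most time points on control diet no member was called by edgeR's quasi-likelihood test. It called 0 of 9 members at ZT0, where 0.536% of all genes were called, with 1 member at an unadjusted p under 0.05 and 0 by DESeq2. At ZT4 it called 0 of 9 beside 0.195%, with 0 members at an unadjusted p under 0.05 and 0 by DESeq2. At ZT8 it called 0 of 9 beside 1.43%, with 1 at an unadjusted p under 0.05 and 0 by DESeq2. At ZT12 it called 0 of 9 beside 2.08%, with 2 at an unadjusted p under 0.05 and 1 by DESeq2, *Igfbp1*. That gene measured 19.9, 9.92, 5.87 and 32.8 CPM in WT against 5.79, 0.918, 2.47 and 3.57 CPM in GR LKO at ZT12, the highest GR LKO mouse just under the lowest WT mouse.

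At ZT16 on control diet edgeR's quasi-likelihood test called 0 of 9 members beside 1.98% of all genes, with 4 at an unadjusted p under 0.05 and 2 by DESeq2, *Ghr* and *Igfbp1*. *Cish* measured 3.73, 3.70, 39.2 and 3.44 CPM in WT against 87.8, 80.6 and 69.7 CPM in GR LKO. WT replicate 3 stood apart from the other WT mice and still lay below all GR LKO mice. Without that mouse *Cish* was the 1 member called. Without GR LKO replicate 1 the 1 member called was *Igfbp1*, which measured 10.8, 6.95, 17.5 and 8.52 CPM in WT against 3.81, 0.477 and 0.469 CPM in GR LKO.

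At ZT20 on control diet 1 of 9 members was called, where 0.42% of all genes were called. *Cish* measured 2.5, 8.36, 5.03 and 4.86 CPM in WT against 56.2, 38.3 and 69.9 CPM in GR LKO. Even the lowest GR LKO mouse was far above the highest WT mouse (log2 difference 3.39, SE 0.35, edgeR adjusted p = 0.0119, higher in 3 of 3). The call of *Cish* was kept with any single mouse left out but lost in 1 fit of all libraries of the diet (3.38) and with a replicate block (3.41), and over 12 alternatives the edgeR or DESeq2 adjusted p ran up to 0.295. *Socs2* at that time measured 4.03, 10, 7.09 and 12.9 CPM in WT against 34.7, 10.4 and 43.1 CPM in GR LKO. GR LKO replicate 2 lay among the WT mice, and *Socs2* was called by DESeq2 but not by edgeR (log2 difference 1.79, SE 0.50, adjusted p = 0.234, above all WT mice in 2 of 3). On caloric restriction *Cish* measured 21.2, 15.8 and 10.8 CPM in WT against 17.3, 4.98 and 12.8 CPM in GR LKO at ZT20, and the groups overlapped.

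The interaction asked whether the genotype effect differed between the diets, with any level difference between the library series of each diet removed. Over the day 1 of 10 members was called, where 1.89% of all genes were called. The genotype effect on *Ghr* was larger on caloric restriction by 0.26 on the log2 scale (SE 0.06, edgeR adjusted p = 0.0152), and on each diet *Ghr* was higher in GR LKO at 6 of 6 time points. The call was lost without replicate number 1 (0.24) or 2 (0.23), and without ZT8 (0.24), ZT12 (0.24) or ZT16 (0.26), with adjusted p up to 0.366 over the alternatives of that edgeR fit. The interaction of *Igfbp1* was -0.86 (SE 0.55, adjusted p = 0.504) and that of *Cish* -0.94 (SE 0.54, adjusted p = 0.434) in the same edgeR fit, so that a difference between the diets was shown for neither gene. At ZT12 alone edgeR's quasi-likelihood test called 0 of 10 members beside 1.01% of all genes, with 1 at an unadjusted p under 0.05 and 0 by DESeq2. The interaction of *Igfbp1* at ZT12 was -1.20 (SE 0.87, edgeR adjusted p = 0.585), and that of *Ghr* was 0.36 (SE 0.12, edgeR adjusted p = 0.189).

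The lists around the members were counted by genotype over the day, where 30.6% of all genes were called on caloric restriction and 18.2% on control diet. These lists were chosen with earlier results of these data known. *Prlr* was higher in GR LKO at 6 of 6 time points on each diet, by a log2 difference of 0.61 on caloric restriction (SE 0.08, edgeR adjusted p = 1.6e-07) and 0.64 on control diet (SE 0.08, edgeR adjusted p = 1.36e-07). Of 15 tested genes of receptor signaling, 3 were higher and 1 lower on caloric restriction, and 2 were higher and 2 lower on control diet, with medians of -0.09 and 0.02. Of the other IGF genes edgeR's quasi-likelihood test called 0 of 12 on caloric restriction and 0 of 11 on control diet. Of the male-biased genes, 3 were higher and 9 lower of 19 tested on caloric restriction (median -0.52), and 2 were higher and 14 lower of 20 tested on control diet (median -0.53). Of the female-biased genes, 11 were higher and 2 lower of 17 tested on caloric restriction (median 1.27), and 11 were higher and 1 lower of 13 tested on control diet (median 2.18). A gene low in WT could pass edgeR's count filter only through GR LKO mice in which it was high. The female-biased shares can therefore not be set against those of all genes. Over all genes tested the medians were 0.0014 and -0.0028. *Slc22a26*, a female-biased transporter, averaged 14 ± 26.1 CPM in WT livers and reached 137 ± 63.4 CPM in GR LKO livers on caloric restriction (SD, n = 18 each). Hepatocyte markers were lower in GR LKO for 5 of 6 genes on caloric restriction and for 4 of 6 on control diet. Endothelial markers were higher for 3 of 5 genes on caloric restriction and for 0 of 5 on control diet. Of the Kupffer and myeloid markers 0 of 5 were called over the day on either diet. At ZT12 on caloric restriction 4 of 5 of them were higher and 4 of 6 hepatocyte markers lower, where 15.3% of all genes were called. The part of these markers in the member results was not tested.

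The corticosterone experiment asked what a raised hormone level does under control feeding. *Igfbp1* was many times higher in all CORT mice, and no other member was called by edgeR. Of 9 members tested 1 was called, where 8.11% of all genes were called, and *Cux2* was too low for edgeR's filter. *Igfbp1* measured 1.08, 4.60 and 6.22 CPM in the control mice and 107, 915 and 136 CPM in the CORT mice. CORT replicate 2 stood above the other CORT mice, and all 3 were above all control mice (log2 change 6.59, SE 1.11, edgeR adjusted p = 0.0172, higher in 3 of 3). Without CORT replicate 2 the change was 4.91 and still called, whereas the call was lost without control replicate 1 (6.16), 2 (6.71) or 3 (7.06), with adjusted p up to 0.0844 over the alternatives of that edgeR fit.

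DESeq2 called 3 members with CORT, *Igfals* and *Cux2* beside *Igfbp1*. *Igfals* measured 60.8, 49.5 and 70.3 CPM in the control mice and 40.7, 44.2 and 37.6 CPM in the CORT mice. The groups did not overlap, and the log2 change was -0.56 (SE 0.14, edgeR adjusted p = 0.0568, lower in 3 of 3). *Cux2* measured 0.144, 0.186 and 0.273 CPM in the control mice and 0.834, 3.03 and 0.616 CPM in the CORT mice, again without overlap. These levels rested on few reads, with estimated counts of 2, 3 and 4 in the control mice and 11, 45.9 and 9 in the CORT mice. *Stat5b* measured 48.3, 47.2 and 47.7 CPM in the control mice and 52.9, 87.0 and 54.2 CPM in the CORT mice, did not overlap either, and was not called (log2 change 0.44, SE 0.20, edgeR adjusted p = 0.211, higher in 3 of 3). *Ghr* measured 559, 526 and 521 CPM against 595, 511 and 585 CPM, with overlapping groups. *Igf1* (log2 change 0.16), *Igfbp2* (-0.00), *Socs2* (1.16), *Cish* (-0.76) and *Bcl6* (0.91) did not pass either. In *Bcl6* the CORT mice spread from 9.43 to 102 CPM around control mice of 20.1 to 30.5 CPM.

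With CORT, 1 of 14 tested genes of receptor signaling rose and 1 fell, where 8.11% of all genes were called (median log2 change 0.18, beside -0.0067 over all genes tested). *Stat3* went from 79.4 ± 4.11 to 164 ± 21.1 CPM and *Stat5a* from 15.8 ± 1.58 to 9.97 ± 0.671 CPM (SD, n = 3 each). Of the other IGF genes 1 of 11 tested fell, the adaptor *Irs1*, from 25 ± 3.14 to 13.6 ± 1.90 CPM (SD, n = 3 each), with a list median of -0.14. Of the male-biased genes edgeR's quasi-likelihood test called 0 of 20 (median -0.15), and of the female-biased genes 0 of 9 (median 0.02). The hepatocyte markers summed to 94709 to 101204 CPM in the control mice and 92163 to 101687 CPM in the CORT mice. Other cell types moved. The Kupffer and myeloid markers summed to 60.2 to 83.9 CPM in the control mice and 90.7 to 124 CPM in the CORT mice. The stellate markers summed to 59.1 to 63.0 against 46.5 to 48.7 CPM, and the erythrocyte markers to 442 to 552 against 219 to 381 CPM. Sums of the cholangiocyte markers overlapped. The part of these markers in the member results was not tested.

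Across the 1 day sampled some members followed a daily course, and some of these also varied widely from mouse to mouse. JTK_CYCLE with a 24 h period called 6 of 10 members rhythmic in WT on caloric restriction, where 27.9% of all genes were called: *Igf1*, *Igfals*, *Igfbp2*, *Socs2*, *Stat5b* and *Cux2*. In GR LKO on caloric restriction it called 5, where 25.7% were called: *Igf1*, *Igfals*, *Socs2*, *Stat5b* and *Cux2*. In WT on control diet it called 3, where 32.3% were called: *Ghr*, *Igfals* and *Stat5b*. In GR LKO on control diet it called 6, where 28.3% were called: *Ghr*, *Igfals*, *Igfbp1*, *Igfbp2*, *Cish* and *Stat5b*. *Igfals* and *Stat5b* were thus called in all 4 groups, and *Bcl6* in none of them. The call of *Igfals* in WT on control diet was lost in 5 of 7 alternatives, among them log2 CPM in place of the variance-stabilized values of DESeq2 (JTK_CYCLE adjusted p = 0.0557, up to 0.129 over all 7, 1.61-fold over 22 mice), and in each other group it was lost without replicate 1, 2 or 3.

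Leaving out 1 replicate number at each time point changed most of these calls. In WT on caloric restriction 2 members were called without replicate 1, and 0 without replicate 2 or 3, by JTK_CYCLE (adjusted p of *Cux2* 0.0503 and 0.0504, of *Igf1* 0.124 and 0.0504, with limma's cosinor test on all mice calling 6). In GR LKO on caloric restriction 0 members were called without replicate 1 or 2 and 1 without replicate 3. In WT on control diet 1 member was called without replicate 3, and in GR LKO on control diet 2, 2 and 3 members were called without replicate 1, 2 and 3. The JTK_CYCLE call of *Ghr* in WT on control diet was kept in all 7 alternatives, with adjusted p up to 0.0268 and a day range of 1.28-fold between group means.

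**Figure D2:**
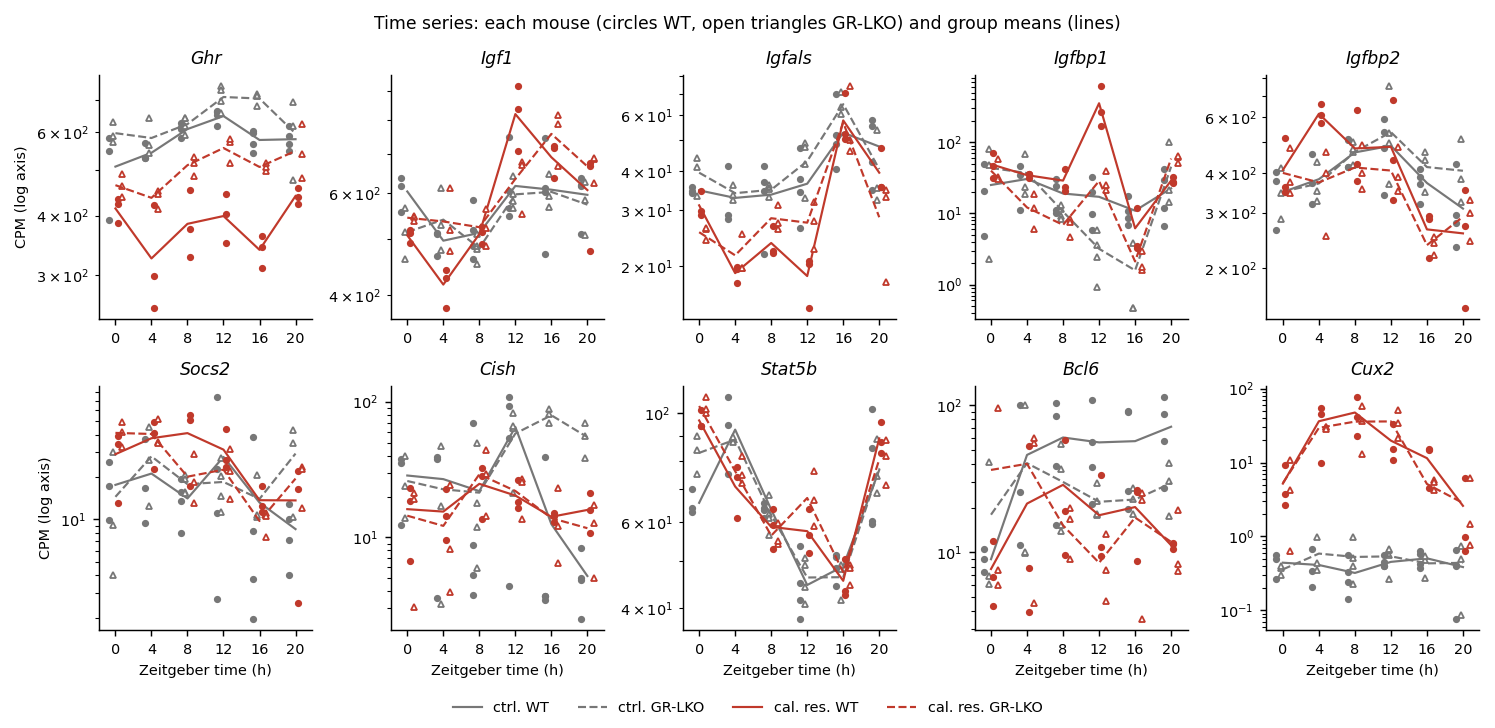
Level of each of the 10 genes in CPM (log axis) against zeitgeber time in hours, for every mouse of the series (circles WT, open triangles GR LKO) with lines through the group means, in grey on control diet and in red on caloric restriction. *Igfals* peaks at ZT16 in all 4 groups, *Igfbp1* at ZT12 in WT on caloric restriction at 353 CPM, and *Cux2* is at 0.633 CPM or more in every mouse on caloric restriction. The 2 diets were normalized separately and belong to separate series of libraries.

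*Ghr* on caloric restriction had a group mean of 325 CPM at ZT4 and 440 CPM at ZT20 in WT, and of 436 CPM at ZT4 and 555 CPM at ZT12 in GR LKO. On control diet it was lowest at ZT0 in WT (507 CPM) and highest at ZT12 in both genotypes (648 and 711 CPM). Single mice ran from 256 to 458 CPM in WT and from 413 to 623 CPM without hepatocyte GR on caloric restriction, and 14 of 18 GR LKO mice were above all WT mice. *Igf1* rose from 418 ± 32.9 CPM at ZT4 to 820 ± 106 CPM at ZT12 in WT on caloric restriction (SD, n = 3 each). In GR LKO on that diet it ran from 524 CPM at ZT8 to 758 CPM at ZT16. On control diet the daily range of *Igf1* was 1.24-fold in WT and 1.25-fold in GR LKO, and JTK_CYCLE called neither, while limma's cosinor test called GR LKO (adjusted p = 0.0291, 20 mice).

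The carriers had different times of day. *Igfals* was highest at ZT16 in every group, with means of 57.8 CPM in WT against 56.9 CPM in GR LKO on caloric restriction, and 52.8 CPM and 65.0 CPM on control diet. In WT on caloric restriction ZT16 followed directly on the lowest mean, 18.6 ± 3.35 CPM at ZT12, and the ranges of the 2 time points did not overlap. *Igfbp1* in those mice went the other way, from 353 ± 240 CPM at ZT12 to 6.18 ± 4.88 CPM at ZT16 (SD, n = 3 each), a 57.1-fold range that JTK_CYCLE did not call (adjusted p = 1, with 3 of 3 mice at ZT12 above all others). In GR LKO *Igfbp1* was highest at ZT20 and lowest at ZT16 on both diets, with means of 59.0 and 2.12 CPM on caloric restriction and 45.3 and 1.59 CPM on control diet. On control diet the ZT20 mice measured 99.9, 14.6 and 21.4 CPM, and the mean rested on replicate 1. *Igfbp2* was highest at ZT4 in WT on caloric restriction (616 ± 42.4 CPM) and lowest at ZT20 (258 ± 102 CPM), while its GR LKO means stayed between 237 and 417 CPM.

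Of the feedback inhibitors, JTK_CYCLE called *Socs2* in both genotypes on caloric restriction and *Cish* in GR LKO on control diet. *Socs2* had its lowest means at ZT16 and ZT20 on caloric restriction, with WT means of 41.1 CPM at ZT8 and 13.6 CPM at ZT20, and GR LKO means of 41.2 CPM at ZT0 and 9.73 CPM at ZT16. On control diet single WT mice ran from 1.96 to 74.7 CPM. *Cish* ran from 6.68 to 32.4 CPM in WT on caloric restriction and from 2.5 to 109 CPM in WT on control diet. In GR LKO on control diet its mean was 21.4 CPM at ZT8 and 79.4 CPM at ZT16, and JTK_CYCLE called it (adjusted p = 0.00344, all 3 mice at ZT16 above all 4 at ZT8, and 0.0911 without replicate 2).

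Among the transcription factors *Stat5b* was called in every group. It was highest at ZT0 on caloric restriction (96.7 ± 4.34 CPM in WT livers, 103 ± 4.15 CPM in GR LKO livers) and at ZT4 on control diet (92.6 ± 16.6 CPM and 88.4 ± 0.958 CPM, SD, n = 3 each). It was lowest at ZT16 or ZT12, at 45.5 to 47.4 CPM on caloric restriction and 44.7 to 46.3 CPM on control diet. *Cux2* ran from 2.59 CPM at ZT20 to 47.5 CPM at ZT8 in WT on caloric restriction, and from 2.83 CPM at ZT20 to 36 CPM at ZT12 in GR LKO. On control diet it stayed between 0.0763 and 0.986 CPM, and on caloric restriction between 0.633 and 77.9 CPM, in both genotypes. The diet and the series of libraries cannot be told apart in these mice. *Bcl6* had group means from 7.71 to 28.8 CPM in WT on caloric restriction and from 8.99 to 71.4 CPM in WT on control diet, with no call in any group.

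Whether the daily course differed between groups was tested with limma. Between WT and GR LKO on caloric restriction limma called 0 of 10 members beside 0.652% of all genes, with 2 members at an unadjusted p under 0.05, and edgeR's test over the 6 time points called 1, where it called 5.34% of all genes, *Igfbp1* (adjusted p = 0.000435, lower in GR LKO in 3 of 3 mice at ZT12 and higher in 3 of 3 at ZT20). Between the genotypes on control diet limma called 0 of 10 beside 0.366%, with 2 at an unadjusted p under 0.05 and 0 by edgeR, which called 0.6% of all genes. Between the diets in WT, where diet and library series cannot be told apart, limma called 3 of 10 members beside 26.6% of all genes. These were *Igf1* (adjusted p = 0.0161, ranges of 1.96-fold and 1.24-fold), *Igfbp2* (adjusted p = 0.0259, 2.39-fold and 1.58-fold) and *Cux2* (adjusted p = 5.45e-05, 18.3-fold and 1.58-fold), over 40 mice. The limma adjusted p of *Igf1* was 0.0565, 0.201 and 0.0833 without replicate 1, 2 and 3. That of *Igfbp2* was 0.195, 0.0521, 0.103 and 0.0701 without replicate 1, 2, 3 and 4, while *Cux2* kept its call in all 8 alternatives. On control diet *Cux2* reached at most 0.680 CPM in a WT mouse, so that its daily range there was at the limit of the depth. Which members were called depended on the test: edgeR's test over 6 time points called 5, where it called 40.1% of all genes, with *Igfals*, *Igfbp1* and *Stat5b* beside *Igf1* and *Cux2* and without *Igfbp2* (adjusted p = 0.0934, 2.39-fold and 1.58-fold).

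The members differed widely in how far mice of 1 group lay apart. Within groups the SD on the log2 scale was 0.159 for *Ghr*, 0.145 for *Igf1* and 0.126 for *Stat5b* on caloric restriction, where the median over 8872 genes was 0.155. It was 1.32 for *Bcl6*, 1.13 for *Cux2*, 0.857 for *Cish*, 0.724 for *Socs2* and 0.590 for *Igfbp1*, larger than in 96.5% or more of those genes. On control diet the SD was 1.41 for *Cish*, 1.26 for *Igfbp1*, 1.11 for *Socs2* and 1.08 for *Bcl6*, beside a median of 0.160 over 8848 genes. *Bcl6* at ZT0 in GR LKO on caloric restriction, for example, measured 95.4, 7.59 and 6.03 CPM. In that group replicate 1 was more than 10 times as high as the others, and its *Cish* was the lowest at 3.06 CPM beside 21.1 and 19.2 CPM.

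Whether members varied together from mouse to mouse was computed on the deviation of each mouse from its own group, on the log2 scale with 0.5 CPM added, for 90 relations chosen after values had been seen. Of these 10 passed a two-sided permutation test with Benjamini-Hochberg adjustment, 6 positive and 4 negative. *Cish* and *Bcl6* ran in opposite directions on both diets. On caloric restriction Pearson's r was -0.79 (permutation p = 9e-05, adjusted 0.003) and Spearman's rho -0.789 (permutation p = 5e-05) over 36 mice, and on control diet r was -0.782 (permutation p = 2e-05, adjusted 0.0018) and rho -0.754 (permutation p = 2e-05) over 42 mice. Without the 2 mice farthest from the median of *Cish*, r was -0.706 and -0.761. Within genotypes r was -0.547 in WT and -0.906 in GR LKO on caloric restriction, and -0.83 and -0.735 on control diet. Most mice with high *Cish* for their group therefore had low *Bcl6*.

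**Figure D3:**
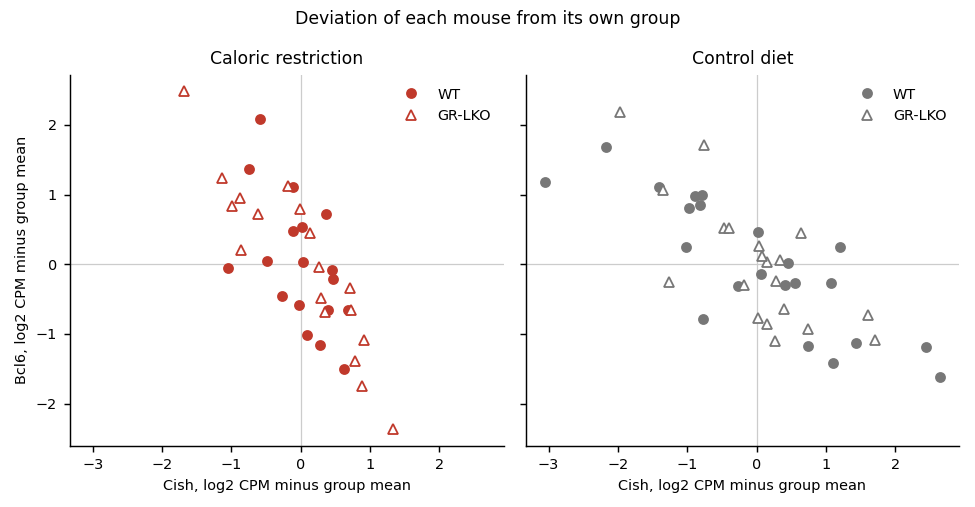
Deviation of every mouse of the series from its group mean for *Cish* (horizontal axis, log2 CPM) and *Bcl6* (vertical axis, log2 CPM), on caloric restriction (left) and control diet (right), with circles for WT and open triangles for GR LKO. Mice above their group in *Cish* lie mostly below it in *Bcl6*, with r of -0.79 over 36 mice and -0.782 over 42 mice.

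Among the positive relations *Socs2* and *Cish* were joined on both diets. *Socs2* and *Cish* had r of 0.465 on caloric restriction (permutation p = 0.00288, adjusted 0.0306, rho 0.499 with permutation p = 0.00361, 0.442 without the 2 farthest mice) and 0.643 on control diet (permutation p = 0.00033, adjusted 0.00742, rho 0.55 with permutation p = 0.00113, 0.498 without the 2 farthest). On control diet *Igf1* and *Socs2* had r of 0.752 (permutation p = 0.0001, adjusted 0.003, rho 0.646 with permutation p = 0.00033, 0.671 without the 2 farthest), and r was 0.498 on caloric restriction (permutation p = 0.0414, adjusted 0.207, rho 0.363 with permutation p = 0.07). Mice high in *Socs2* for their group were thus mostly high in *Igf1* on control diet. *Igf1* and *Bcl6* had r of -0.538 on control diet (permutation p = 0.00286, adjusted 0.0306, rho -0.555 with permutation p = 0.00183, -0.647 without the 2 farthest), and *Socs2* and *Bcl6* r of -0.562 (permutation p = 0.0017, adjusted 0.0306, rho -0.537 with permutation p = 0.00372, -0.506 without the 2 farthest). The other 3 relations that passed were *Socs2* with *Cux2* and *Ghr* with *Igf1* on caloric restriction (r of 0.598 and 0.432) and *Igf1* with *Cish* on control diet (r of 0.546).

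For each member the genes with the most similar profile were looked up over the 24 group means of the series, centred within each diet, as a description in which genotype and time of day both enter. *Ghr* was like *Fabp1* (r = 0.868) and *Keg1* (r = 0.828). *Igf1* was most like *Mcur1* (r = 0.89), *Igfals* most like *Slc17a9* (r = 0.953) and *Nr1h3* (r = 0.917), and *Igfbp1* most like *Trp53inp1* (r = 0.911). *Igfbp2* was most like *Man2c1* (r = 0.877), *Socs2* most like *Rbm5* (r = 0.822) and *Cish* most like *Myc* (r = 0.824). *Stat5b* was most like *Tab2* (r = 0.914), *Cux2* most like *Tm4sf4* (r = 0.827) and *Bcl6* most like *Slc30a1*, at a lower r of 0.651.

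The members were placed on GRCm38 in the GENCODE M21 annotation, all as protein-coding genes. *Ghr* (ENSMUSG00000055737) is at chr15:3317760-3583492 on the minus strand. *Igf1* (ENSMUSG00000020053) is at chr10:87858265-87937042 on the plus strand, and *Socs2* (ENSMUSG00000020027) on the same chromosome at chr10:95385362-95417180 on the minus strand. *Igfals* (ENSMUSG00000046070) is at chr17:24865997-24882010 and *Igfbp2* (ENSMUSG00000039323) at chr1:72824503-72852474, both on the plus strand. *Igfbp1* (ENSMUSG00000020429) is at chr11:7197782-7202546 on the plus strand, and *Stat5b* (ENSMUSG00000020919) at chr11:100780731-100850724 on the minus strand. *Cish* (ENSMUSG00000032578) is at chr9:107296026-107302784 on the plus strand, *Bcl6* (ENSMUSG00000022508) at chr16:23965052-23988852 and *Cux2* (ENSMUSG00000042589) at chr5:121856366-122050102, both on the minus strand.

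Promoters from RefSeq (GRCm38.p6), from 250 bases before to 50 after each start, matched 9 of 10 members in 16 windows, all but *Socs2*. They were searched on both strands for TTCNNNGAA, which reads the same on both strands and which STAT5 proteins are known to bind, and for CAAAACA, part of a sequence that FOXO factors are known to bind. TTCNNNGAA was in 8.3% of all 32851 promoter windows, 0.457% held it at least 2 times and 0.0335% at least 3 times, and CAAAACA was in 6.28%. Of the members, *Cish*, *Bcl6* and *Igfals* had the first motif and *Igfbp1* the second, and no member window held both. The 3 windows printed are those of *Cish* and *Bcl6*, which varied in opposite directions between mice, and of *Igfbp1*, which edgeR called higher with caloric restriction and with CORT. Capitals mark the motif, 5′ to 3′ on the strand of the gene, and a match describes the letters and not a bound site. They are *Cish* at chr9:107296409-107296708 (plus strand, 2 matches), *Bcl6* at chr16:23981234-23981533 (minus strand, 3 matches, while its other start had 1) and *Igfbp1* at chr11:7197537-7197836 (plus strand, 1 match of CAAAACA).
Cish: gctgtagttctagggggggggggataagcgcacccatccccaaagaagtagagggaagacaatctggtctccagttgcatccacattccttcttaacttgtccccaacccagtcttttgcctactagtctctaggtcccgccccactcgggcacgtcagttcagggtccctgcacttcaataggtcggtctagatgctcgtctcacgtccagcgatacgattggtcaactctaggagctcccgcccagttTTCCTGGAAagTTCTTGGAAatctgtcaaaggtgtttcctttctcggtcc
Bcl6: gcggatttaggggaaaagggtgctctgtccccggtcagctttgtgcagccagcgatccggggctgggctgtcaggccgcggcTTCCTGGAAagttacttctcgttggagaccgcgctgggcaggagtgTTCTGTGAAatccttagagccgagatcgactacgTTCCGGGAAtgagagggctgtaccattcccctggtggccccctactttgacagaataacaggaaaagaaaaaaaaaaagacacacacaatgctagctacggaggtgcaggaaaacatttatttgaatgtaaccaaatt
Igfbp1: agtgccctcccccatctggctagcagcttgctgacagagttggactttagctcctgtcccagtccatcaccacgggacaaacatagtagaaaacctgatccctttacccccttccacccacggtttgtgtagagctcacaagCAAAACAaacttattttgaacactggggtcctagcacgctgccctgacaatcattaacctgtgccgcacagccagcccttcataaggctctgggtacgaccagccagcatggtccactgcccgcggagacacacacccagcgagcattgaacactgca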

How the data were processed

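Polyadenylated RNA of 90 mouse livers was sequenced. The authors checked the reads with FastQC, quantified them with Salmon and deposited estimated counts per gene (expected counts, not normalized), in 4 tables. A further table of VST values for the corticosterone libraries was not used. Per the labels the genome build is mm10, and the transcript annotation is not stated. Of 27654 gene IDs 27244 were matched to a symbol.

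Counts were rounded and fitted in R 4.3.3 with edgeR 4.0.16 (TMM, filterByExpr at a minimum count of 10, quasi-likelihood F test, Benjamini-Hochberg adjustment over all genes tested, called under 0.05). Each comparison used its own libraries, and fits over the day held time point, or diet by time point, as a factor. The SE is the log2 change divided by the square root of F. Each diet of the series has its own run of library numbers, so genotypes were compared within a diet. Rhythms were tested with JTK_CYCLE (own implementation, exact null, 24 h period) on VST values from DESeq2 1.42.0, and rhythm differences with limma 3.58.1, which asked whether the 24 h cosine and sine terms differed between groups.

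The alternatives were the DESeq2 Wald test, DESeq2 size factors, no count filter, a replicate block, 1 fit per diet, other ZT12 libraries, and leaving out each mouse, replicate number or time point. Leaving out WT replicate 3 of caloric restriction at ZT12, which held pancreas markers, was added after seeing the data. The members, the gene lists and the marker lists were chosen with earlier results of these data known. From each list at most the 3 called genes with the largest rise and the 3 with the largest fall, at 1 CPM or more in a group, could be named, and genes most like a member were the 3 of 5 CPM or more with the highest r. Some of these are not reported here. Replicates are separate mice, and none of 102 pairs of libraries was identical.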

Additional observations from a re-analysis of the deposited data

Results flagged for a closer look

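Among the groups of 4 mice, 4 of 60 tests of a member in a group found a mouse whose gap to its nearest neighbour, as a share of the range of the group, exceeded the critical value of Dixon's Q test, where chance gives about 1 in 20. Only groups on control diet held 4 mice, 4 of those 6 groups were WT, and the mice found were all WT. *Cish* at ZT8 was high in replicate 2, at 69.8 CPM beside 3.76, 5.25 and 8.84 CPM (share 0.923). *Cish* at ZT16 was high in replicate 3, at 39.2 CPM beside 3.44, 3.70 and 3.73 CPM (share 0.992), and *Socs2* was high in that same mouse, at 38.8 CPM beside 1.96, 3.76 and 8.23 CPM (share 0.829387). *Igf1* at ZT20 was low in replicate 1, at 510 CPM beside 617, 620 and 637 CPM (share 0.842).

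The genotype effect on *Ghr* over the day differed between the diets, larger on caloric restriction by 0.26 on the log2 scale, by the interaction term, but the call was lost in 5 of 15 alternatives (adjusted p up to 0.366 in edgeR). The daily course differed between caloric restriction and control diet in WT for *Igf1* (adjusted p = 0.0161, ranges of 1.96-fold and 1.24-fold), *Igfbp2* (adjusted p = 0.0259, 2.39-fold and 1.58-fold) and *Cux2* (adjusted p = 5.45e-05, 18.3-fold and 1.58-fold), by limma over 40 mice, where 26.6% of all genes were called. *Igf1* lost its call in 3 of 8 alternatives and *Igfbp2* in 5 of 8, while *Cux2* kept it in all 8. The range of *Cux2* on control diet was at the limit of the depth, with at most 0.680 CPM in a WT mouse. Diet and library series cannot be told apart in the comparison of daily courses between the diets. Which members were called depended on the test: edgeR's test over 6 time points called *Igfals*, *Igfbp1* and *Stat5b* as well and not *Igfbp2*, where it called 40.1% of all genes.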

How the results depend on the processing

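Of 364 alternative values of 41 called member results, 265 kept their direction and their side of the threshold, 99 kept the direction but missed the threshold, and 0 reversed. Leaving out 1 mouse or replicate number accounted for 85 of the 99, of 183 such values, and 3 called values missed with a replicate block. Replicate numbers were checked as pairs and did not pair mice (r between compared groups from -0.235 to 0.223, median -0.0104, with 0 of 14 comparisons above 0.1 in every pair). No cause was tested for any change below.

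The count of members called by the DESeq2 Wald test was 2 on caloric restriction at ZT4 and at ZT8, 4 at ZT12 and 3 at ZT16, 1, 2 and 2 on control diet at ZT12, ZT16 and ZT20, and 3 with CORT. With a replicate block it was 0 on caloric restriction at ZT8 and 0 on control diet at ZT20, and on caloric restriction at ZT12 it was 2 with *Igfals* in place of *Ghr*. In 1 fit of all libraries of a diet it was 4 and 0 on caloric restriction at ZT12 and ZT20, and 0 on control diet at ZT20. With the WT mice of the series taken at ZT12, where diet and library series cannot be told apart, it was 4 for the diet. Over the day on control diet it was 2 without ZT0, 2 without ZT4 and 0 without ZT16, and the interaction had 0 without ZT8, ZT12 or ZT16. Rhythm differences by edgeR's test over 6 time points numbered 1 between genotypes on caloric restriction and 5 between diets in WT.

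Leaving out 1 mouse or replicate number gave 4 to 6 members for the diet and 0 to 1 for CORT. On caloric restriction it gave 0 to 1 at ZT4 and ZT8, 1 to 2 at ZT12, 0 to 2 at ZT16 and 0 to 1 at ZT20. On control diet it gave 0 to 1 at ZT16 and over the day, and 0 to 1 for the interaction over the day. Rhythmic members numbered 0 to 2 in WT and 0 to 1 in GR LKO on caloric restriction, 1 to 3 and 2 to 4 on control diet, and rhythm differences between the diets 1 to 2. Groups held 3 or 4 mice, and *Cux2* on control diet, under 1 CPM in every mouse, was at the limit of the depth.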
